A study of Mus musculus with 15 samples.

Results

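The comparison described here set 5 trigeminal ganglia of mice given resolvin D6 (RvD6-standard, replicates 6 to 10) against 5 ganglia of mice given vehicle (replicates 1 to 5), out of 15 samples in the series. All animals were male CD1 mice, 10 weeks old, whose right cornea had been wounded with a 2 mm trephine. The drops were put on the eye 3 times a day, and the ganglion of the wounded side was taken on day 12. The remaining 5 samples (RvD6-isomer, replicates 11 to 15) came from mice treated in the same way with the RvD6 isomer that the study isolated from tears; they entered the fit, and their values are set beside the comparison in one paragraph near its end. All groups carried the wound and no unwounded ganglion is part of the comparison. The dose of RvD6 is not given in the sources used here.

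The trigeminal ganglion holds the cell bodies of the sensory neurons that innervate the cornea and face, wrapped by satellite glia, with Schwann cells on the axons, resident macrophages, vessels and a connective tissue sheath. It lies on the skull base, next to bone marrow, the pituitary and the muscles of mastication, and blood runs through it. In these samples treatment and the amount of muscle and blood RNA went together, and whether that RNA came with the treatment or with the dissection cannot be told apart. Resolvin D6 is a dihydroxy derivative of docosahexaenoic acid, one of the lipid mediators formed while inflammation resolves. Messenger RNA of whole ganglia was measured, so fewer cells of a type and less RNA per cell cannot be told apart.

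The 10 libraries held 5336073 to 9903396 counted reads, with a median of 9147139 in vehicle and 7235362 in RvD6-standard, and 16567 genes passed the filter on low counts. The labelled tissue was borne out by its defining markers: Uchl1, Tubb3 and Snap25, which all sensory neurons express, had 4641 to 7675, 8326 to 17418 and 8368 to 11954 normalized counts in the RvD6-standard libraries, and 6826 to 8442, 16306 to 19361 and 10173 to 14089.5 in vehicle. Some libraries stood apart. Vehicle replicate 4 had the highest muscle and blood RNA of its group, RvD6-standard replicates 8 and 9 had the most muscle RNA of all, RvD6-standard replicate 7 carried several airway-type transcripts, and RvD6-isomer replicate 15 had as much blood RNA as the RvD6-standard group. Values without one of these libraries are given for some of the results named here.

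Across the 16567 genes the quasi-likelihood test of edgeR called 0 genes higher (0%) and 0 lower (0%) in RvD6-standard at an adjusted p below 0.05. The smallest adjusted p was 0.0784, for the muscle gene Ttn and the bone and endothelial phosphatase gene Alpl. At an unadjusted p below 0.05 the same fit gave 1264 genes higher (7.63%) and 992 lower (5.99%). DESeq2, the tool of the study, called 230 genes higher (1.39%) and 79 lower (0.477%) on the same genes. The edgeR count of 0 came from the fit of all 15 samples. It became 35 with only the 2 groups compared and 52 without RvD6-isomer replicate 15. All 5 RvD6-standard libraries lay above all 5 vehicle libraries for 372 genes (2.25%) and below them for 243 (1.47%). In the following, "higher" and "lower" counts of a gene list refer to the unadjusted p of edgeR unless DESeq2 is named, and are read against these shares.

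The genes DESeq2 called higher had large differences and those it called lower small ones, with a median log2 fold change of 1.65 against -0.61. Of the 309 genes, 290 were protein coding, 67 belonged to at least one of 64 gene lists (26 cell classes and 38 functions) and 242 to none. DESeq2 called 21 of the 37 tested members of 2 skeletal muscle lists higher, and 7 of 81 in 7 blood lists. This balance differed between fits. On the 2 groups alone, edgeR called 2 muscle contractile and 0 muscle calcium and energy genes. In the blood lists it called 6 erythroid, 2 granulocyte precursor, 5 mature neutrophil and 1 platelet gene. Without RvD6-isomer replicate 15 these counts were 6 and 2 for muscle, and 4, 5, 7 and 1 for blood. The B lineage, T and NK cell and blood progenitor lists had 0 in both fits. The lower genes came mostly from the abundant end, 55 of 79 from the most expressed of 4 equal bins of all genes, whereas the higher genes were spread over the 4 bins with 44, 59, 75 and 52 from the lowest to the highest. By exonic length, 29, 31, 14 and 5 of the lower genes lay in the bins from the shortest to the longest, and 36, 62, 62 and 70 of the higher ones. Over all genes the median log2 fold change went from -0.13 in the shortest bin to 0.17 in the longest, and from 0.18 in the least to -0.11 in the most expressed bin. The part of length and level in single results was not tested. The edgeR fit called 0 genes with and without each library's trend on gene length, so its calls cannot show what length contributes. At an unadjusted p below 0.05 edgeR gave 1096 genes higher and 1040 lower with that trend removed. The DESeq2 calls were not refitted without the trend.

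Skeletal muscle, red cell and granulocyte transcripts are described first, and known regulators of these lineages bind short motifs. The 120 bases before the annotated start (RefSeq, GRCm38.p6, gene strand) are shown for 4 of these genes because each stands for 1 of the groups described next. Gene coordinates given further on are those of GENCODE, whose start can differ from that of RefSeq. For Atp2a1 the GENCODE start lies within the bases shown. Capitals mark the match to a motif: in Acta1 the CArG box bound by serum response factor, in Atp2a1 the letters CAGCTG of an E box read by the myogenic factors, in Alas2 the letters AGATAA of a GATA site (on the opposite strand, TTATCT), and in Elane the letters AGGAAGT of an ETS site of the PU.1 type.
Acta1, minus strand, chr8:123894776-123894895: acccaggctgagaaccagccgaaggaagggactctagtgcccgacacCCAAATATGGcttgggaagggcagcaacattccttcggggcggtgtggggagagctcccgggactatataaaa
Atp2a1, minus strand, chr7:126463074-126463193: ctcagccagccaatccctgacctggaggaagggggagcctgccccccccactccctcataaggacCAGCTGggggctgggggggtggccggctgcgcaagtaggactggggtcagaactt
Alas2, plus strand, chrX:150547297-150547416: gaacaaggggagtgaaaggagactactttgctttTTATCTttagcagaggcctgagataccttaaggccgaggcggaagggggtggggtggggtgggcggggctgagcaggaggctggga
Elane, plus strand, chr10:79886192-79886311: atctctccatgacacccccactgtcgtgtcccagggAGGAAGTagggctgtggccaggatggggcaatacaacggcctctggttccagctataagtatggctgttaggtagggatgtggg

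Both strands of the 250 bases before the start were searched, and no motif contains the letters of another. A CArG box stood in 4 of 16 muscle contractile genes with a promoter in the table (25%) against 1.62% of 27025 genes, and CAGCTG in 6 of 16 (37.5%) against 14.7%. AGATAA stood in 5 of 16 erythroid genes (31.2%) against 11.4%. AGGAAGT stood in 6 of 13 granulocyte precursor genes (46.2%) and 3 of 10 mature neutrophil genes (30%) against 8.8%. These are letter matches in promoters of genes chosen as lineage markers, and no binding was measured.

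A muscle score and a blood score summarized RNA of these tissues in each library. The muscle score is the mean, over 24 genes of the sarcomere, of log2 CPM centred on the 15 libraries, and the blood score is the same over the erythroid, granulocyte precursor and B lineage lists. The muscle score was -0.747, -1.03, -1.33, 0.164 and -1.06 in vehicle replicates 1 to 5 and 1.58, 0.125, 3.46, 3.94 and 1.33 in RvD6-standard replicates 6 to 10. The groups overlapped, because RvD6-standard replicate 7 lay just under vehicle replicate 4, and replicates 8 and 9 lay far above the rest. The blood score was -1.38, -0.754, -1.08, 0.691 and -1.14 in vehicle and 1.43, 1.64, 1.29, 0.817 and 2.41 in RvD6-standard. Here the groups did not overlap, with vehicle replicate 4 closest to the RvD6-standard libraries.

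**Figure D1:**
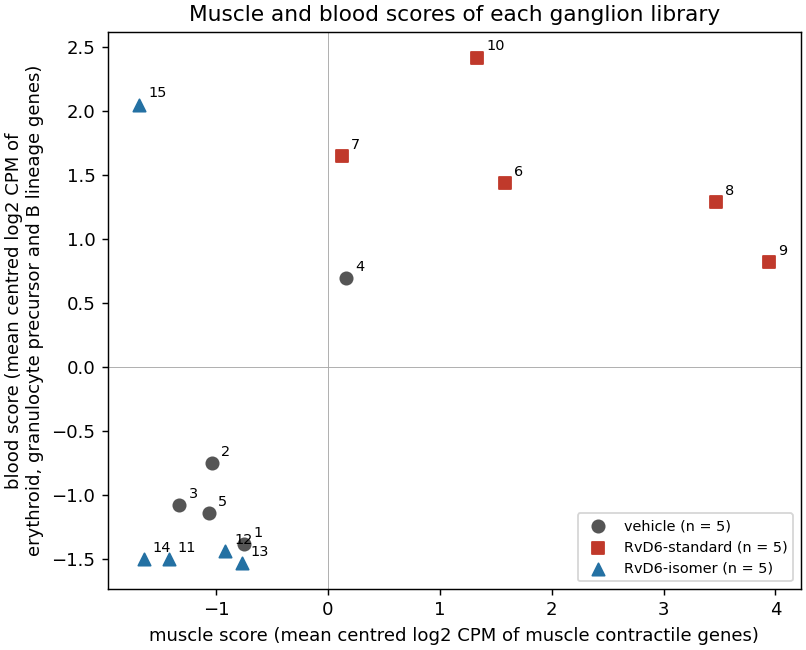
Muscle score (x axis) and blood score (y axis) of each library, both as mean centred log2 CPM; each point is 1 library, numbered by replicate, with colour and shape for the group. The RvD6-standard libraries lie above 0 on both axes, from 0.125 to 3.94 on the muscle axis and from 0.817 to 2.41 on the blood axis, and vehicle replicate 4 and RvD6-isomer replicate 15 leave their groups.

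As a share of all counted reads these tissues were small. Muscle contractile genes took 0.00730% to 0.0253% of the reads in vehicle and 0.0235% to 0.401% in RvD6-standard, and erythroid genes 0.244% to 0.522% and 0.607% to 1.11%. The reads of 16 pan-neuronal genes made up 1.45% to 1.61% in vehicle and 0.926% to 1.51% in RvD6-standard. Over the 10 libraries the group accounted for 64.8% of the variance of the muscle score and 75.5% of that of the blood score, so a fit with the scores as covariates can separate score and group only in part. The covariate fits used all 15 libraries, so RvD6-isomer replicate 15 entered them too. Its blood score was 2.05, against -1.53 to -1.44 in the rest of its group. How far values at equal scores depend on that library was not tested. Once the group means were subtracted the scores were nearly unrelated to each other (r = -0.13 over 10 libraries, a description).

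Skeletal muscle genes showed the largest differences of any list. Of the 24 sarcomere genes tested, all had a higher estimate in RvD6-standard, 20 were higher by the unadjusted p of edgeR against 7.63% of all genes, and DESeq2 called 14; the median log2 fold change was 3.65, against 0.02 over all genes tested. Acta1, which encodes skeletal actin (chromosome 8, 123891769 to 123894751, minus strand), had 179, 94.3, 62.7, 530.1 and 140 normalized counts in vehicle and 849.8, 214, 4753, 6342 and 881 in RvD6-standard. Replicates 8 and 9 were highest, and replicate 7 lay below vehicle replicate 4, so the groups overlapped. Its log2 fold change was 3.69 ± 0.76 (SE), with an adjusted p of 0.0967 in edgeR and 0.00162 in DESeq2.

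Ttn, the giant spring protein of the sarcomere, did not overlap, with 125, 125, 38.6, 204 and 10.7 normalized counts in vehicle and 551, 350.4, 3399, 5149 and 1312 in RvD6-standard (log2 fold change 4.41 ± 0.72, adjusted p 0.0784 in edgeR and 2.65e-05 in DESeq2). Ckm, the muscle creatine kinase, had 31.0, 18.7, 32.1, 168 and 28.8 in vehicle and 465, 71.2, 1854, 2371 and 203 in RvD6-standard, and replicate 7 again lay within the vehicle range. Myosin heavy chains Myh1, Myh2 and Myh4, light chains Myl1 and Mylpf, fast troponins Tnnt3 and Tnni2, nebulin (Neb) and the sarcomere-associated Actn3, Xirp2 and Cmya5 were all called higher by DESeq2, with log2 fold changes between 2.25 for Neb and 4.87 for Myh4. Actn2 was higher by 3.55 without a DESeq2 call (adjusted p 0.163).

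Of 13 genes of muscle calcium handling and fuel use, 9 were higher and DESeq2 called 7, with a median log2 fold change of 2.52. Atp2a1, the calcium pump of fast muscle (chromosome 7, 126445858 to 126463108, minus strand), went from 15.2, 10.7, 4.02, 73.9 and 23.9 normalized counts in vehicle to 248, 98.2, 2238, 5447 and 216 in RvD6-standard, a difference of 6.04 ± 1.08 on the log2 scale (adjusted p 0.0967 in edgeR and 0.000381 in DESeq2). Every RvD6-standard library exceeded every vehicle library, yet replicates 8 and 9 were far above the other 3. Trdn and Casq1, which hold the calcium release complex and store calcium, the glycolytic muscle enzymes Pgam2, Eno3 and Pygm, and the oxygen store Mb were also called by DESeq2, from 1.81 for Casq1 to 4.74 for Trdn. Exons of Atp2a1, Ttn, Ckm, Myh1, Myh2, Neb, Xirp2, Cmya5, Casq1 and Mb overlap a gene on the opposite strand, and the library protocol does not keep the strand. The muscle myosin light chain Mylpf also has a near copy, Mylf-ps, called higher as well, so the reads of both are uncertain.

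The muscle difference rested in large part on RvD6-standard replicates 8 and 9. Without them the median of the sarcomere list was 1.81 and that of the calcium and fuel list 0.98, and with the muscle score as a covariate the medians were -0.16 and -0.14. At both scores equal they were -0.28 and -0.20. The sarcomere genes make up the muscle score, so their loss in that fit is built in, whereas Atp2a1, Eno3 and the other calcium and fuel genes are not part of it. For Atp2a1 the log2 fold change with both scores was 0.58 (unadjusted p 0.524), and for Acta1 it was -0.73.

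Red cell genes were higher in most members of the list. All 22 tested members had a higher estimate, 15 were higher by the unadjusted p, 11 had no overlap between the groups (2.25% of all genes), and DESeq2 called 1; the median log2 fold change was 2.21. That gene, Slc4a1, the anion exchanger of the red cell membrane, had 17.3, 18.7, 7.23, 44.3 and 3.29 normalized counts in vehicle and 182, 267, 119, 177 and 432 in RvD6-standard (log2 fold change 3.69 ± 0.86, adjusted p 0.0967 in edgeR and 0.00975 in DESeq2). Alas2, the erythroid enzyme that starts haem synthesis, which overlaps a gene on the opposite strand, had 183, 259.8, 223, 611 and 241 in vehicle and 879.5, 716, 1123, 523 and 949 in RvD6-standard. Vehicle replicate 4 reached above RvD6-standard replicate 9, and the difference of 1.46 ± 0.46 had an adjusted p of 0.191 in edgeR and 0.116 in DESeq2.

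The beta globin gene Hbb-bs had 6222, 4966, 4497, 10054 and 4638 normalized counts in vehicle and 19278, 16744, 19349, 12298 and 22056 in RvD6-standard, without overlap (log2 fold change 1.55, adjusted p 0.200 in edgeR and 0.138 in DESeq2). The alpha globin copies Hba-a1 and Hba-a2 had log2 fold changes of 1.34 and 1.27; such near-identical copies lose or share reads in counting, so their levels are uncertain. Ermap, an erythroblast membrane protein, was higher by 3.13 without a DESeq2 call. Slc25a37, the mitochondrial iron importer of haem-making cells, stood out among 20 genes of haem synthesis and iron as the only one called by DESeq2, with 126, 47.2, 45.8, 113 and 88.9 in vehicle and 199.5, 471, 243, 351 and 336 in RvD6-standard (log2 fold change 1.91 ± 0.43, DESeq2 adjusted p 0.00161). Leaving out vehicle replicate 4 raised the median of the erythroid list to 3.04, and the blood score, of which these genes are part, took it as a covariate to 0.19, a loss that is built in.

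Granulocyte genes were higher both for the marrow precursor stage and for mature neutrophils. Of 13 precursor genes 11 were higher and DESeq2 called 2 (median log2 fold change 2.41), and of 11 mature neutrophil genes 9 were higher, 8 without overlap, and DESeq2 called 3 (median 2.70). Chil3, a secreted chitinase-like protein of granulocyte precursors and activated macrophages, had 160.1, 208, 359, 946 and 244 normalized counts in vehicle and 1991, 2746, 1386, 911 and 3234 in RvD6-standard, with vehicle replicate 4 above RvD6-standard replicate 9 (log2 fold change 2.41 ± 0.55, adjusted p 0.0967 in edgeR and 0.0157 in DESeq2). Elane, neutrophil elastase, had 13.7, 11.6, 22.5, 80.8 and 16.5 in vehicle and 129, 172, 179.5, 50.8 and 214 in RvD6-standard; the same 2 libraries overlapped, and it was not called by DESeq2 (log2 fold change 2.36, adjusted p 0.361).

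Mmp9, the gelatinase stored in neutrophil granules, had 12.3, 17.8, 34.5, 54.2 and 29.6 normalized counts in vehicle and 244, 353, 164, 182 and 347 in RvD6-standard, with no overlap (log2 fold change 3.11 ± 0.69, adjusted p 0.0967 in edgeR and 0.00624 in DESeq2). Csf3r, the receptor of granulocyte colony-stimulating factor, and Ly6g, the surface marker of mouse neutrophils, were called by DESeq2 as well, at 3.13 and 3.38. Fcnb, a ficolin of granulocyte precursors, had 0, 0, 0, 5.91 and 0 in vehicle and 72.8, 132, 1.4, 35.9 and 103 in RvD6-standard, so its log2 fold change of 5.86 rests on 4 vehicle libraries at 0 and is no bound. The inflammatory calcium-binding genes S100a8 and S100a9 were higher by 2.70 and 2.61 (DESeq2 adjusted p 0.117 and 0.117). Without vehicle replicate 4 the medians of the precursor and neutrophil lists were 3.06 and 3.22. With the blood score as a covariate the medians were -0.16 for the precursor list, whose genes are part of that score, and -0.07 for the mature neutrophil list, whose genes are not.

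Other blood lists were less pronounced. All 11 platelet genes had a higher estimate and 4 were higher, among them the integrin Itgb3 and the platelet chemokines Pf4 and Ppbp at 0.93, 1.40 and 2.61. Of 12 B lineage genes 2 were higher, Spib and Cd79a, and of 9 blood progenitor genes 4, of which DESeq2 called Gata2 (log2 fold change 2.08, adjusted p 0.0479). Only 3 of 14 T and NK cell genes passed the filter and none of these was higher by the unadjusted p of edgeR. Genes of the cell cycle moved with the blood lists: 16 of 30 were higher, 7 without overlap, with a median log2 fold change of 1.37. Mki67, a marker of dividing cells, had 21.6, 46.3, 1.61, 57.1 and 56.0 normalized counts in vehicle and 209, 560.3, 299, 159 and 642 in RvD6-standard, every library above vehicle (log2 fold change 3.35 ± 1.05, adjusted p 0.191 in edgeR and 0.145 in DESeq2). Cenpf, a kinetochore protein, was the cell cycle gene DESeq2 called, and without vehicle replicate 4 the cell cycle median was 1.99. The blood score as a covariate took the cell cycle median to -0.00383 and the platelet median to -0.54.

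**Figure D2:**
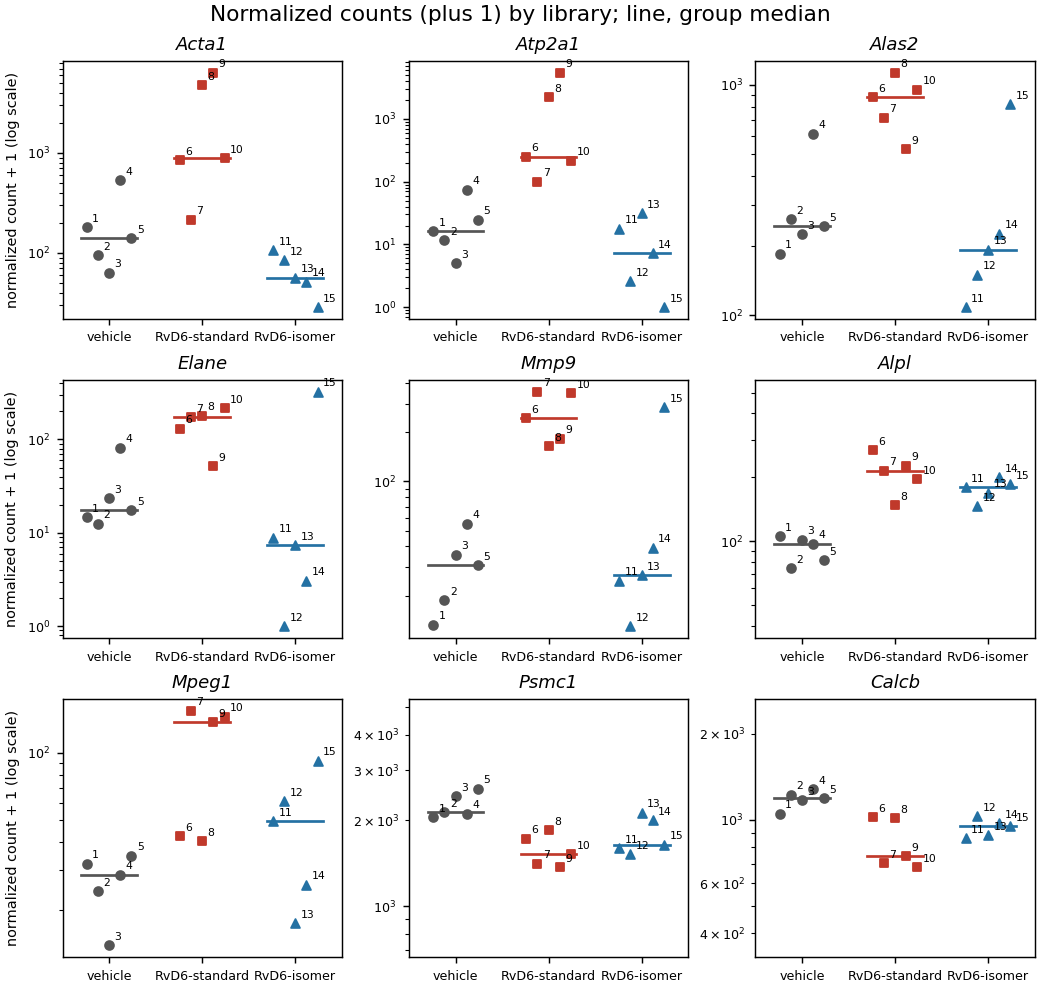
Normalized counts plus 1 on a log axis for 9 genes, with each of the 15 libraries as a point numbered by replicate and a line at the group median. The muscle genes Acta1 and Atp2a1 peak in RvD6-standard replicates 8 and 9, the blood genes Alas2, Elane and Mmp9 are high again in RvD6-isomer replicate 15, and Psmc1 and Calcb show the smaller, opposite difference, all 5 RvD6-standard libraries lying below all 5 vehicle libraries.

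Whether a difference follows muscle or blood was read from the libraries within each group. A gene was taken to follow a score where its correlation with it, over the 10 libraries after the group means were subtracted, was at least 0.7, which uses nothing of the difference between groups. Of all genes outside the score lists 2.06% followed the muscle score and 1.24% the blood score. Of the 213 such genes that DESeq2 called higher, 19 (8.92%) followed muscle and 14 (6.57%) followed blood, which leaves 180 (84.5%) that followed neither. The rule also missed genes of the scores themselves. It was met by 17 of 24 sarcomere genes for muscle, and for blood by 12 of 22 erythroid, 9 of 13 granulocyte precursor and 5 of 12 B lineage genes. Following neither score therefore does not show that a gene is independent of muscle or blood RNA. Of the 79 that DESeq2 called lower, 1 followed muscle and 1 followed blood. Both scores were higher in RvD6-standard, so a lower gene would go with a score at a negative correlation. A correlation of -0.7 or less was found for 0 of the 79 with muscle and 1 with blood, against 1.52% and 1.11% of all genes outside the score lists. The correlations rest on 10 points that share their libraries with the fold changes and are given as a description.

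The genes called higher that followed muscle were for the most part muscle genes that the score did not contain: Atp2a1, Casq1, Trdn, Eno3, Pgam2, Pygm and Mb of the calcium and fuel list, and outside the lists, chosen for this rule after their values were seen, the intermediate filament Des, the tropomyosin Tpm2, cardiac actin Actc1, mitochondrial creatine kinase Ckmt2, Nrap, Srl, Slc2a4 (the insulin-responsive glucose transporter) and Tbx15. With both scores as covariates the log2 fold change went from 3.41 to -0.38 for Des, from 2.52 to -0.10 for Tpm2 and from 4.81 to -0.37 for Ckmt2, and from 5.47 to 3.96 for Actc1. Hnrnpa2b1, a splicing factor that is not particular to muscle, also followed the muscle score (r = 0.74), with 834, 750, 776, 762 and 761 normalized counts in vehicle and 904, 889, 1128, 1294 and 1148 in RvD6-standard. Its log2 fold change was 0.45, and 0.12 with both scores.

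The genes called higher that followed blood included genes of phagocytes and dividing cells, the 14 being Csf3r, Mmp9, C5ar1 (the receptor of complement fragment C5a), Lyz2 (lysozyme), Ncf1 (a subunit of the phagocyte oxidase), complement C3, Cd84, Tnfsf13b, the osteoclast protease Ctsk, Atp2a3, Mxd1, Stx16 and the chromosome segregation genes Nuf2 and Esco2. With both scores as covariates the log2 fold change went from 1.80 to 0.43 for Ncf1, from 1.75 to 0.91 for Lyz2, from 2.35 to 1.76 for C3 and from 1.16 to 1.12 for Ctsk. The glucose transporter Slc2a1 was the lower gene that followed muscle (r = 0.76), and the folate enzyme Mthfd2 the one that followed blood (r = 0.73). Within groups both rose with a score that was higher in RvD6-standard, so their decrease ran opposite to that score. With both scores as covariates the log2 fold change went from -0.59 to -0.83 for Slc2a1 and from -0.60 to -0.58 for Mthfd2. Raising the limit on r to 0.8 left 13 and 2 of the higher genes, and lowering it to 0.6 gave 27 and 29.

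**Figure D3:**
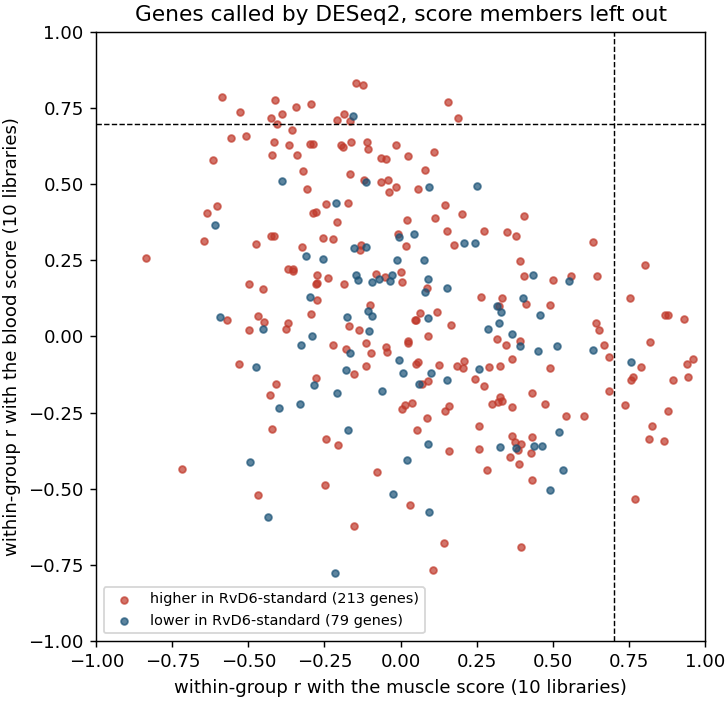
Within-group correlation with the muscle score (x axis) and with the blood score (y axis), over 10 libraries, for each gene that DESeq2 called and that is in neither score; dashed lines mark 0.7. Most of the 213 higher and 79 lower genes lie in the field below both lines, and the higher genes past a line number 19 for muscle and 14 for blood.

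Genes of bone and connective tissue were also higher. Of 13 bone and cartilage genes 9 were higher, 5 without overlap, and DESeq2 called 4 (median log2 fold change 1.75). Alpl, the alkaline phosphatase of bone-forming cells that vessels also express (chromosome 4, 137741733 to 137796384, minus strand), had 105, 73.8, 100.5, 96.6 and 80.7 normalized counts in vehicle and 268, 214, 147, 226 and 194 in RvD6-standard. The lowest RvD6-standard library exceeded the highest vehicle library, and the difference of 1.19 ± 0.20 on the log2 scale had an adjusted p of 0.0784 in edgeR and 2.65e-05 in DESeq2. Its within-group correlation was -0.18 with the muscle and -0.04 with the blood score, and with both scores as covariates it was 1.33 (unadjusted p 0.00546).

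Ctsk, the collagen-degrading protease of osteoclasts, had 60.6, 92.5, 78.8, 116 and 93.0 normalized counts in vehicle and 218, 258, 157, 146 and 212 in RvD6-standard, again without overlap (log2 fold change 1.16 ± 0.23, adjusted p 0.0967 in edgeR and 0.000852 in DESeq2). Mmp13, the collagenase of cartilage and bone, had 1.44, 1.78, 1.61, 7.88 and 0 in vehicle and 53.2, 70.3, 16.8, 65.7 and 63.4 in RvD6-standard, and Bglap, osteocalcin, was higher by 2.35; both were called by DESeq2. Unlike Alpl, these 3 had within-group correlations of 0.74, 0.62 and 0.63 with the blood score. The blood score as a covariate took the median of the bone and cartilage list to 0.75, and both scores to 1.12.

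All 14 fibroblast genes had a higher estimate, 6 were higher and DESeq2 called 3 (median log2 fold change 0.65), and of 31 collagen genes 8 were higher and DESeq2 called 4 (median 0.55). Col1a2, a chain of type I collagen, had 1453, 1358, 784, 1121 and 1072 normalized counts in vehicle and 2738, 2289.9, 1412, 2257 and 2549.8 in RvD6-standard; replicate 8 lay below the highest vehicle library (log2 fold change 0.94 ± 0.21, adjusted p 0.0967 in edgeR and 0.00238 in DESeq2). The other chain, Col1a1, had 142, 104, 40.2, 80.8 and 19.8 in vehicle and 471, 311, 140.2, 558 and 362 in RvD6-standard, with replicate 8 just below the highest vehicle library. Col3a1 and Col8a2 were called at 1.13 and 2.29, and Aspn, a small proteoglycan of connective tissue, at 3.58 without overlap. At equal scores Col1a2 was higher by 1.09 and Col1a1 by 1.81 (unadjusted p 0.0252 and 0.0959), while the median of the collagen list was 0.19. Of 47 matrix proteases and inhibitors 8 were higher, and besides Mmp9 and Mmp13 DESeq2 called the gelatinase Mmp2 (0.66).

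Acta2, smooth muscle actin of arteries and of contractile fibroblasts, was the gene of the smooth muscle and pericyte list that DESeq2 called, with 269.8, 409, 372, 338 and 268 normalized counts in vehicle and 1532, 519.8, 424, 948 and 665 in RvD6-standard, led by replicate 6 (log2 fold change 1.29 ± 0.28, adjusted p 0.0967 in edgeR and 0.00196 in DESeq2). It followed neither score (r = 0.02 with muscle and -0.02 with blood) and was 1.63 with both as covariates. Myh11, the myosin of smooth muscle, was higher by 2.00. In the endothelial list 4 of 15 genes were higher (Plvap, Kdr, Eng and Flt1, at 1.77, 0.71, 0.59 and 0.43), and 2 lower, the junction genes Cldn5 and Esam at -0.44 and -0.56; DESeq2 called none of these.

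Macrophage and inflammatory genes were higher in part. Of 16 macrophage genes 5 were higher, 4 without overlap, and DESeq2 called 3, while the median log2 fold change of the list was 0.33. Mpeg1, the pore-forming protein of phagosomes, had 31.0, 23.1, 12.9, 27.6 and 33.8 normalized counts in vehicle and 41.5, 153, 39.3, 136 and 144 in RvD6-standard (log2 fold change 1.98 ± 0.49, adjusted p 0.125 in edgeR and 0.0102 in DESeq2). The lysosomal Cd68 had 36.1, 54.3, 60.3, 27.6 and 20.6 in vehicle and 161, 87.4, 72.9, 85.5 and 141 in RvD6-standard, and the signalling adaptor Tyrobp was higher by 1.64; both were called by DESeq2. Neutrophils and monocytes carry the same transcripts. The first 3 markers of the list had log2 fold changes of -0.32 for Aif1, -0.40 for Csf1r, the lowest of the list, and 0.90 for Cx3cr1. Only Cx3cr1 passed the unadjusted p, and DESeq2 called none of the 3. Over the whole list 12 of 16 genes had a higher estimate and 4 a lower one, and 0 were lower by the unadjusted p.

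Cd74, the invariant chain of antigen presentation, and Tap1, the peptide transporter, were called by DESeq2 at 1.17 and 1.33 among 18 genes of antigen presentation, of which 4 were higher. Cd74 had 94.5, 103, 108, 78.8 and 118 normalized counts in vehicle and 162, 145, 133, 476 and 228 in RvD6-standard, without overlap but with replicate 9 far above the others, and 0.19 on the log2 scale with both scores. Of 22 interferon-stimulated genes 5 were higher. Cxcl12, the chemokine that holds blood precursors in the marrow and guides growing axons, had 586, 732, 732, 704 and 758 in vehicle and 1264, 1090, 1048, 1107 and 1342 in RvD6-standard, with no overlap (log2 fold change 0.72 ± 0.19, DESeq2 adjusted p 0.0166). It was 1 of 2 of the 14 chemokine and cytokine genes that were higher, the other being the monocyte receptor Ccr2 at 1.04.

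RvD6 itself is a product of lipoxygenases, and 22 enzymes and receptors of lipid mediators were measured. Of these, 4 were higher, 1 was lower, and DESeq2 called 2 higher. Alox5, the 5-lipoxygenase of leucocytes, had 2.89, 9.79, 22.5, 26.6 and 14 normalized counts in vehicle and 85.3, 92.8, 19.6, 37.2 and 128 in RvD6-standard, with replicate 8 within the vehicle range (log2 fold change 2.25 ± 0.65, DESeq2 adjusted p 0.0329, r = 0.66 with the blood score). Pnpla2, a triglyceride lipase that is also described as the receptor of pigment epithelium-derived factor, had 110.3, 98.8, 92.4, 77.8 and 52.7 in vehicle and 105, 139, 144, 321 and 199 in RvD6-standard (log2 fold change 1.05 ± 0.29, DESeq2 adjusted p 0.0332). Alox5ap and the cyclooxygenase Ptgs1 were higher by 1.20 and 0.94 without a call.

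**Figure D4:**
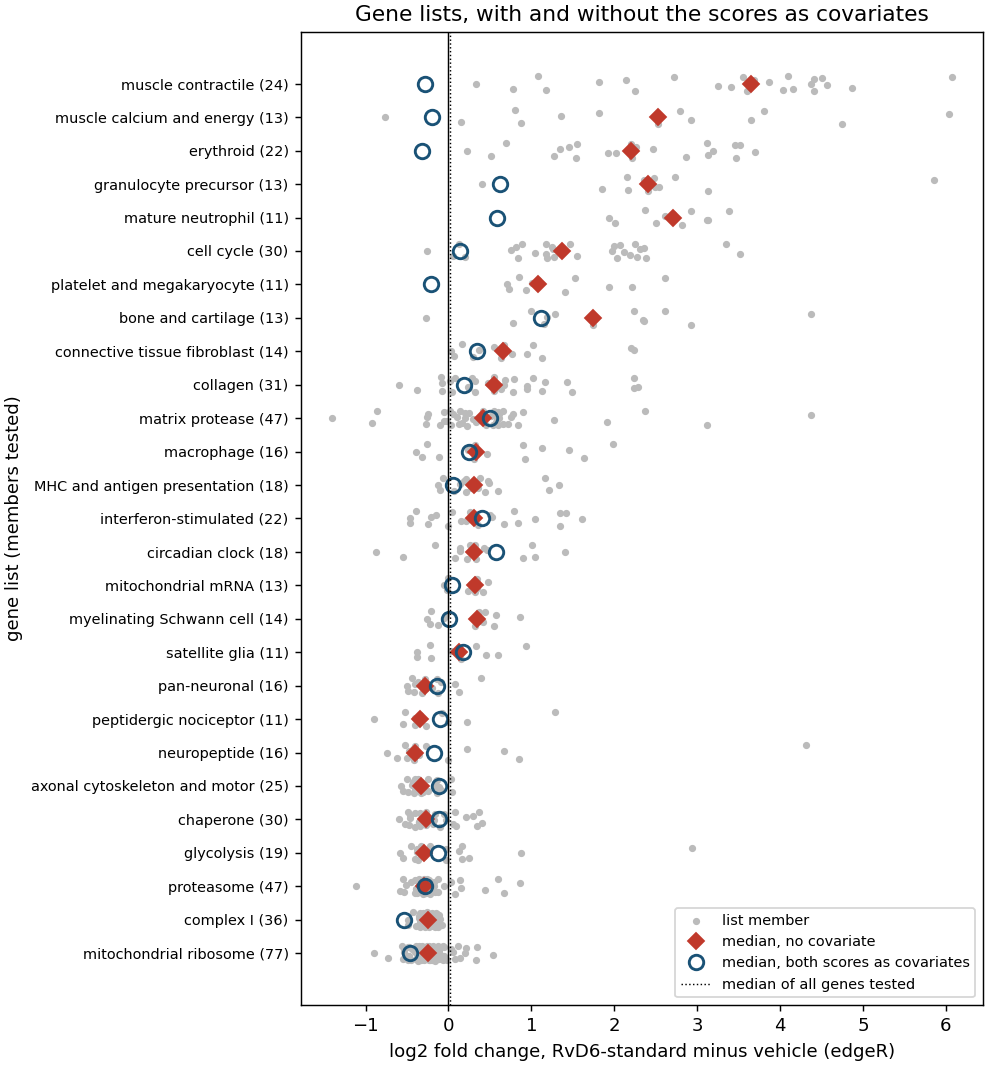
Log2 fold change of RvD6-standard minus vehicle for the tested members of 27 gene lists (grey points), with the median of each list without covariates (diamond) and with both scores as covariates (open circle); solid and dotted lines mark 0 and the median of all genes. Medians of the muscle lists go from 3.65 and 2.52 to -0.28 and -0.20, that of the bone and cartilage list from 1.75 to 1.12, and that of the proteasome list from -0.30 to -0.28.

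Neuronal genes were lower by small amounts. Of 16 pan-neuronal genes 13 had a lower estimate and 5 were lower by the unadjusted p of edgeR (5.99% of all genes), none called by DESeq2, with a median log2 fold change of -0.28. Prph, the intermediate filament of small sensory neurons, had 9149, 10274, 9338, 9440 and 11193 normalized counts in vehicle and 8636, 6435, 8814, 4956 and 6290 in RvD6-standard, every library below vehicle (log2 fold change -0.50 ± 0.15, adjusted p 0.175 in edgeR and 0.0531 in DESeq2). Stmn2, a microtubule regulator of growing axons, had 14537, 14267, 17009, 14833 and 16065 in vehicle and 14926, 11234, 12906, 9893 and 9747 in RvD6-standard, where replicate 6 lay within the vehicle range. Of 25 genes of the axonal cytoskeleton and its motors 11 were lower, with a median of -0.33, and none was called by DESeq2. At equal scores the pan-neuronal median was -0.14 with 0 genes lower and 1 higher, and the axonal median -0.12 with 0 lower. Replicates 9 and 10, whose pan-neuronal scores were -0.516 and -0.430 against -0.0342 to 0.166 in vehicle, were the 2 lowest RvD6-standard libraries for Prph, Stmn2, Tubb3 and Snap25.

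Among neuron classes the peptidergic nociceptors, which release neuropeptides, held the one gene of the neuron class lists that DESeq2 called. That gene, Calcb, which encodes a calcitonin gene-related peptide, had 1050.2, 1222, 1172, 1282 and 1191 normalized counts in vehicle and 1022, 704, 1011, 742 and 681 in RvD6-standard, all below vehicle (log2 fold change -0.52 ± 0.14, adjusted p 0.143 in edgeR and 0.0274 in DESeq2), and -0.75 with both scores as covariates. Tac1, the precursor of substance P, had 2954, 2599.8, 3179, 2519 and 3937 in vehicle and 2600.1, 2503, 2315, 2028 and 2117 in RvD6-standard, and RvD6-standard replicate 6 overlapped vehicle (log2 fold change -0.41 ± 0.13, adjusted p 0.200 in edgeR and 0.100 in DESeq2). The other calcitonin gene Calca had a log2 fold change of -0.27, uncalled. Over 16 neuropeptide genes 8 were lower and 1 higher, with a median of -0.40; the higher one, Vip, had 0, 29.4, 0.8, 1.97 and 28.0 in vehicle and 688, 162, 169.7, 178 and 0 in RvD6-standard. Unlike the value of Calcb, the list medians were smaller at equal scores, -0.17 for neuropeptide genes with 2 lower and -0.10 for peptidergic nociceptor genes with 1 lower.

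Non-peptidergic nociceptor, cold-sensing and large-diameter neuron genes showed no call by either tool, with 2 of 13, 0 of 5 and 2 of 12 genes lower by the unadjusted p and medians of -0.03, 0.21 and -0.05. The cold channel Trpm8 had 177, 195, 156, 143 and 173 normalized counts in vehicle and 282, 185, 230, 99.2 and 197 in RvD6-standard, and the groups overlapped (log2 fold change 0.22 ± 0.25). Cacna2d3, an auxiliary calcium channel subunit of pain pathways, was the one ion channel gene called lower, with 333, 290.1, 270, 304 and 434 in vehicle and 174, 249, 233, 149 and 146 in RvD6-standard, without overlap (log2 fold change -0.80 ± 0.20, adjusted p 0.125 in edgeR and 0.0225 in DESeq2). Over the 4 ion channel lists, of 17 TRP and Piezo, 11 sodium, 27 potassium and 18 calcium and HCN channel genes, 1 each was higher and 1, 0, 0 and 3 were lower. Of 31 transmitter receptors 2 were lower and none higher.

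Glial lists are given one by one. The myelinating Schwann cell list had a median log2 fold change of 0.35 with 2 of 14 genes higher, which became 0.02 without RvD6-standard replicate 9. Ugt8a, an enzyme of myelin lipid synthesis, had 1137, 1332, 1082, 1162 and 942 normalized counts in vehicle and 1484, 1842, 1440.3, 3478 and 2141 in RvD6-standard, without overlap (log2 fold change 0.86 ± 0.23, DESeq2 adjusted p 0.0172), while the myelin genes Mbp and Pmp22 had -0.12 and -0.21, uncalled. Gfap, an intermediate filament of reactive glia, had 125, 269, 155, 137 and 118 in vehicle and 174, 322, 210.4, 768 and 309 in RvD6-standard, led by replicate 9 (log2 fold change 1.13 ± 0.34, DESeq2 adjusted p 0.0380). In satellite glia Apoe, the lipid carrier and the most counted gene of the list, had 42432, 46971, 48600.3, 51842 and 51178 in vehicle and 39720.1, 31022, 42147, 36928 and 37195 in RvD6-standard, all below vehicle (log2 fold change -0.38 ± 0.12, adjusted p 0.191 in edgeR and 0.0996 in DESeq2), while 1 of 11 list genes was higher and 2 were lower. Of 9 non-myelinating Schwann cell genes 8 had a higher estimate (median 0.25, and 0.30 with both scores) and Gfap alone passed the unadjusted p. With the muscle score as covariate the medians turned negative for the myelinating Schwann cell list (-0.21) and for satellite glia (from 0.13 to -0.13).

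**Figure D5:**
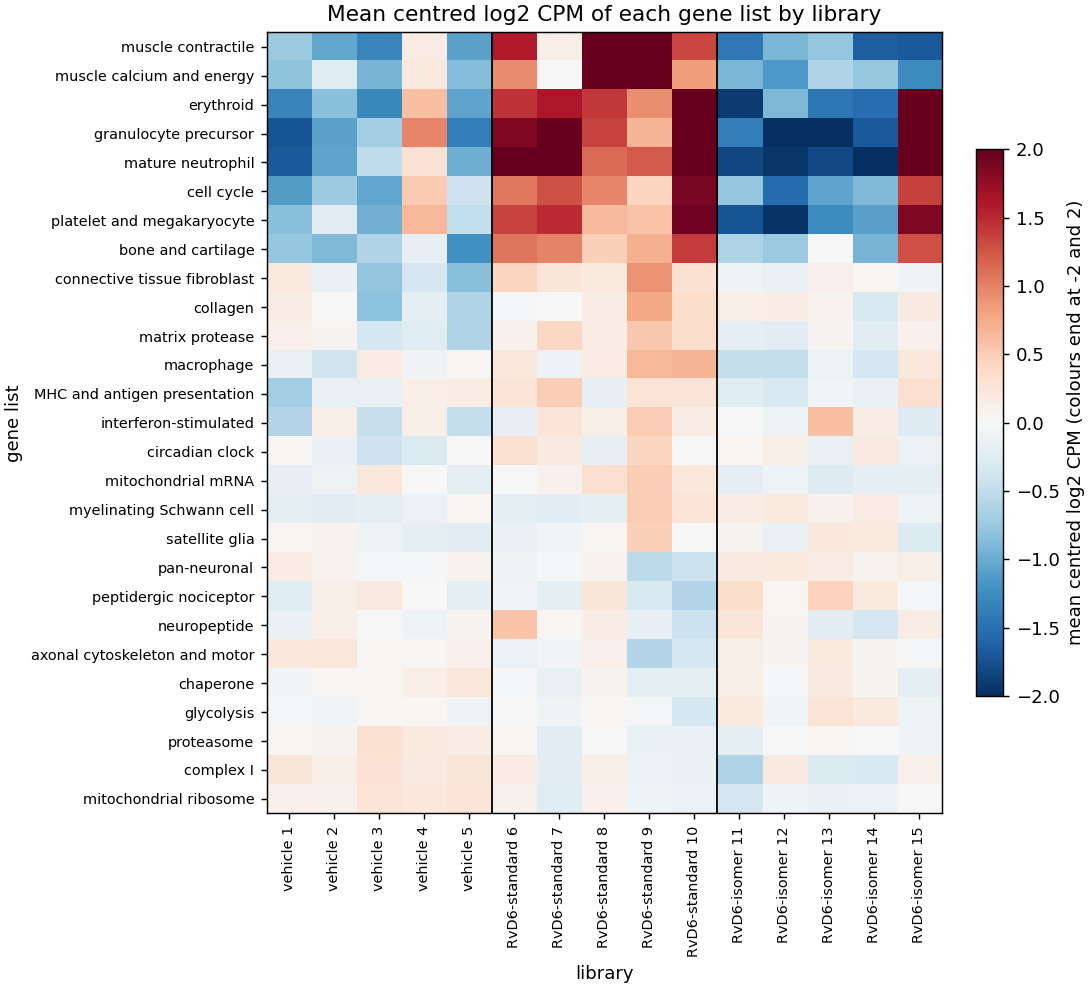
Mean centred log2 CPM of 27 gene lists (rows) in each of the 15 libraries (columns, vertical lines between groups); red is above and blue below the mean of all libraries, and colours end at -2 and 2. Muscle lists are strongest in RvD6-standard replicates 8 and 9, blood lists in all 5 RvD6-standard libraries and RvD6-isomer replicate 15, and pan-neuronal genes are blue in RvD6-standard replicates 9 and 10.

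Of 47 proteasome genes 21 were lower (5.99% of all genes), 6 without overlap, and DESeq2 called 3, with a median log2 fold change of -0.30 that stayed at -0.28 with both scores as covariates and was -0.22 with the gene length trend removed; the genes lower by the unadjusted p went from 21 to 2 at equal scores, where 288 of all genes were lower. Psmc1, an ATPase of the proteasome cap, had 2052, 2136, 2428, 2108 and 2578 normalized counts in vehicle and 1724, 1406, 1847, 1368 and 1524 in RvD6-standard, all below vehicle (log2 fold change -0.53 ± 0.13, adjusted p 0.125 in edgeR and 0.0152 in DESeq2). The cap subunits Psmd3 and Psmc5 were called at -0.59 and -0.51, and the activator gene Psme3 went the other way at 0.67, uncalled.

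In the nuclear-encoded part of the respiratory chain, 6 of 36 complex I genes and 8 of 41 genes of complexes II to V were lower, and 19 of 77 genes of the mitochondrial ribosome, with medians of -0.25, -0.25 and -0.25; all 36 complex I genes had a lower estimate and DESeq2 called none of the 3 lists' genes. At equal scores these medians were -0.53, -0.47 and -0.47, while the genes lower by the unadjusted p went from 6, 8 and 19 to 3, 1 and 9. With the gene length trend removed the medians were -0.16, -0.19 and -0.21. Messenger RNA from the mitochondrial genome had 4 of 13 genes higher and none lower, with a median of 0.33 that became 0.05 with the GC trend removed, 0.04 with both scores and -0.02 with the muscle score. mt-Nd5, a complex I subunit made in the mitochondrion, had 21465, 21994, 26166, 22276 and 22187 normalized counts in vehicle and 26068, 30828, 31066, 35011 and 30964 in RvD6-standard (log2 fold change 0.42 ± 0.11, adjusted p 0.129 in edgeR and 0.0176 in DESeq2); vehicle replicate 3 just exceeded RvD6-standard replicate 6.

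Glycolysis, chaperone and vesicle pump lists had medians of -0.29, -0.27 and -0.27, which were -0.12, -0.11 and -0.35 at equal scores and -0.24, -0.26 and -0.15 with the gene length trend removed. Of 19 glycolysis genes 9 were lower and 2 higher; Ldhb, the lactate dehydrogenase of oxidative cells, had 8539.7, 9008, 8872, 9834 and 8825 normalized counts in vehicle and 7598, 5326, 7217, 4792 and 6208 in RvD6-standard, all below vehicle (log2 fold change -0.55 ± 0.14, DESeq2 adjusted p 0.0227). The glucose transporter Slc2a1 was called lower at -0.59 and the muscle-type hexokinase Hk2 higher at 2.94, from 0.8 to 4.33 in vehicle to 5.48 to 39.7 in RvD6-standard. Of 30 chaperones 11 were lower and 2 higher, with Hspb8 called at -0.52 (3689.9, 3943, 4491, 4792 and 5229 in vehicle and 3600.1, 2911, 3666, 2604 and 2786 in RvD6-standard). Of 19 subunits of the V-ATPase, which acidifies lysosomes and synaptic vesicles, 6 were lower and 2 higher, with Atp6v0e2 called at -0.56. Among 64 translation factors 7 were lower and 2 higher, DESeq2 calling Eef1g lower and Eif4b higher, and of 81 cytosolic ribosomal protein genes 1 was higher and 1 lower.

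The 10 genes called lower with the largest decrease and no overlap between the groups, at a mean of at least 50 normalized counts, were Chrm2, Aard, Gm17396, Adck5, Clvs2, Haus7, Sytl3, Cd320, Ddx25 and Ndufaf7. None of them had a within-group correlation of 0.7 or more with either score. Of all 79 lower genes, 0 had a correlation of -0.7 or less with muscle and 1 with blood. Chrm2, the muscarinic acetylcholine receptor M2, had 93.8, 107, 78.0, 48.3 and 117 normalized counts in vehicle and 5.48, 8.11, 25.2, 34.7 and 20.1 in RvD6-standard (log2 fold change -2.28 ± 0.63, adjusted p 0.156 in edgeR and 0.0219 in DESeq2), and -3.59 with both scores. Clvs2, a lipid-binding protein of neuronal endosomes, had 137, 116, 95.6, 154 and 171 in vehicle and 55.5, 83.8, 70.1, 62.0 and 62.4 in RvD6-standard (log2 fold change -1.03 ± 0.22). Haus7, a subunit of the augmin complex that branches microtubules, had 262, 229, 219, 251 and 184 in vehicle and 99.4, 113, 159.9, 125 and 107 in RvD6-standard (log2 fold change -0.94 ± 0.20), and -1.27 at equal scores (unadjusted p 0.00527). The other 7 had log2 fold changes of -1.44 to -0.82. Exons of Chrm2, Adck5, Clvs2 and Sytl3 overlap another gene.

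On the side of increase the same rule gave Atp2a1, Trdn, Ttn, Xirp2, Cmya5 and Pgam2 of muscle, Slc4a1 and Ly6g of blood, and Aspn and Cd84. Cd84, an adhesion receptor of leucocytes and platelets, had 2.16, 0, 0.8, 19.7 and 7.41 normalized counts in vehicle and 63.4, 179, 42.1, 59.5 and 191 in RvD6-standard (log2 fold change 4.16 ± 1.00). Outside the cell class lists Nr1d1, the clock repressor REV-ERB alpha, had 83.7, 205, 106, 67.0 and 122 in vehicle and 316, 329.7, 208, 400.3 and 304 in RvD6-standard, each above every vehicle library (log2 fold change 1.40 ± 0.27, adjusted p 0.0967 in edgeR and 0.000409 in DESeq2). It followed neither score (r = -0.24 and -0.34) and was 1.91 with both as covariates (unadjusted p 0.00516). Of 18 clock genes 4 were higher and none lower, the others being Bhlhe40, Nr1d2 and Hlf at 1.04, 0.90 and 1.00; the hour of dissection is not given in the sources used here.

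With both scores as covariates edgeR called 1 gene and DESeq2 0, and 401 genes were higher and 288 lower at an unadjusted p below 0.05. These 689 of 16567 genes are no more than that threshold passes when no gene differs. Without covariates 1264 were higher and 992 lower. The called gene was Reg3g, an antimicrobial lectin of airway and gut epithelium, which had 10.1, 0, 10.4, 0 and 0 normalized counts in vehicle and 36.8, 1842, 15.4, 11.2 and 0 in RvD6-standard, so the call rests on replicate 7. Of the 10 genes of smallest p in that fit, Cbr2 and Bpifa1 showed the same library, with 712 and 5035 in replicate 7 against at most 84.5 and 110.3 in the other 4. Other airway secretory genes, chosen after their values were seen and given with no test, shared this: Muc5b, Cyp2f2 and Wfdc2 had 543, 515 and 251 in replicate 7, and Bpifb1 had 4226 in replicate 6 and 752 in replicate 7 against 33.2 to 132 in vehicle. Scgb1a1, the club cell secretoglobin, did not, at 11.7 in replicate 7. Without replicate 7 the log2 fold change went from 6.39 to 1.89 for Reg3g and from 6.18 to 2.01 for Bpifa1, and without replicate 6 from 3.87 to 1.73 for Bpifb1.

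The other 7 genes of that set were Ocrl, Lin52, Wdr13, Kank4 and Erlin1, which were higher, and Banp and Zscan21, which were lower. Lin52, a subunit of the complex that times cell cycle genes, had 93.0, 88.1, 94.0, 82.8 and 97.2 normalized counts in vehicle and 173, 191, 99.6, 128 and 205 in RvD6-standard, each above every vehicle library, with a log2 fold change of 0.80 without and 1.71 with the scores. It was the only one of the 7 that DESeq2 also called without covariates (adjusted p 0.0475). Its within-group correlation with the muscle score was -0.84, and those of Banp and Zscan21 were 0.73 and 0.79. Among the genes of other lists that kept an unadjusted p below 0.05 at equal scores were Alpl, Nr1d1, Ctsk, Acta2, Col1a2, mt-Nd5, Apoe, Calcb, Ldhb and Slc2a1. Since no more genes passed in that fit than when no gene differs, this is a description and not a set of calls.

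Pituitary hormones varied widely from library to library within both groups. Gh, growth hormone, had 46.2, 139.7, 25399, 2295 and 607 normalized counts in vehicle and 5387, 4626, 1474, 552 and 5798 in RvD6-standard, and Prl, prolactin, 0, 17.8, 1214, 90.7 and 26.3 and 394, 596, 128, 85.5 and 180.3; vehicle replicate 3 was highest in both. Pomc, the precursor of corticotropin, was called higher by DESeq2 (log2 fold change 5.33 ± 1.47, adjusted p 0.0225) on 6.49, 21.4, 209, 44.3 and 24.7 in vehicle and 44.6, 171, 8.41, 1696 and 10478 in RvD6-standard, so that the call rests on replicates 9 and 10. Fat, keratin and brainstem glia lists had no gene past an unadjusted p of 0.05, with 2, 4 and 7 members that passed the filter.

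Set beside the RvD6-isomer ganglia, the RvD6-standard ganglia again had higher counts of muscle genes. That contrast shares the fit and the RvD6-standard samples, and edgeR called 39 genes in it, 37 higher and 2 lower in RvD6-standard. Atp2a1 had 16.9, 1.6, 30.1, 6.2 and 0 normalized counts in RvD6-isomer replicates 11 to 15, and Acta1 106, 83.9, 55.7, 50.6 and 27.7, all below the RvD6-standard libraries. Medians of RvD6-standard minus RvD6-isomer were 3.77 for the sarcomere, 1.51 for erythroid and 2.02 for neutrophil genes, the blood values including RvD6-isomer replicate 15, without which this contrast was not computed. Ctsk and Acta2 were called in this contrast too, at 1.21 and 1.45. The median of RvD6-standard minus RvD6-isomer was -0.00134 for proteasome and 0.13 for complex I genes, whose medians against vehicle were -0.27 and -0.39 in RvD6-isomer and -0.30 and -0.25 in RvD6-standard. Both lipids share the vehicle samples in these values.

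Of the other genes the study plots, Gpm6a, a membrane glycoprotein of growing neurites, had 401, 619, 514, 723 and 487 normalized counts in vehicle and 763, 497, 847, 1605 and 1138 in RvD6-standard (log2 fold change 0.81 ± 0.26, adjusted p 0.200 in edgeR and 0.0621 in DESeq2) and -0.01 with both scores. C9orf72, Nrp1 and Rictor, which act in autophagy, semaphorin reception and mTOR signalling, had log2 fold changes of 0.29, 0.35 and 0.68, and none was called by either tool.

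Further functional lists held few genes past an unadjusted p. Axon guidance had 4 of 37 genes higher and none lower (median 0.31), nerve injury and regeneration 1 of 21 higher and 3 lower (median -0.21), synaptic vesicle 1 and 0 of 24, and immediate early genes 2 and 0 of 15. Lysosome, autophagy and antioxidant lists had 0, 1 and 0 genes higher and 5 of 26, 4 of 32 and 3 of 24 lower. Lipid synthesis had 2 higher and 2 lower of 25, fatty acid oxidation 1 and 2 of 19, hypoxia 0 and 2 of 14 and splicing factors 2 and 0 of 31. Apart from the Slc2a1 and Hnrnpa2b1 results given above, DESeq2 called no gene of these lists.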

How the data were processed

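Messenger RNA of 15 trigeminal ganglia was amplified by a Smart-seq2 protocol, which does not keep the strand, and sequenced. The authors aligned reads to GRCm38 and deposited raw counts per gene (featureCounts, GENCODE M22 annotation; Subread 1.6.5 and R 3.6.1 per the labels), leaving out reads that matched several places or genes. Symbols came from GENCODE M21. P-values measure the spread between these libraries, 5 in each group.

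Counts were filtered with filterByExpr (16567 genes kept), scaled by TMM and fitted by edgeR 4.0.16 (R 4.3.3; quasi-likelihood) over 15 samples in 3 groups, with Benjamini-Hochberg adjustment at 0.05. DESeq2 1.42.0, the tool of the study, was the alternative. Normalized counts are counts divided by DESeq2 size factors, and log2 CPM used a prior count of 2. The SE printed after ± is approximate. It is the absolute edgeR log2 fold change divided by the square root of the quasi-likelihood F statistic. Figures were drawn with matplotlib 3.10.9. The edgeR scripts were tested on simulated data. Genes were named by rule: the 10 largest differences in each direction among genes called by DESeq2 without overlap and with a mean of at least 50 normalized counts, the 10 smallest p with both scores as covariates, in each list up to 4 genes of smallest p and those called by DESeq2, the first 3 markers of each cell class, and 7 genes the study plots. Some genes that this rule names are not reported here. Genes outside this rule are named where a count or correlation turns on them, after their values were seen. Members, lists and tests were chosen with earlier results of these data known. Alternatives were the tool, filter, samples, depth, covariates, length and GC trends, and leaving out each sample.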

Additional observations from a re-analysis of the deposited data

Results flagged for a closer look

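Among 160 checks of a named value within a group of 5 libraries, 1 library lay apart from the other 4 in 25, by Dixon's ratio above 0.71. Chance exceeds this ratio about 1 time in 20 for independent values with a normal spread. Normalized counts were checked without taking logarithms, and genes of the same tissue rose together in a library. The 25 therefore cannot be set against that rate. In each of them the library apart was the highest of its group. Values are normalized counts unless a score is named. In RvD6-isomer replicate 15 these were blood score (2.05, the others -1.53 to -1.44). In vehicle replicate 4 these were Atp2a1 (73.9, the others 4.02 to 23.9), Trdn (20.7, the others 0 to 2.89), Acta1 (530.1, the others 62.7 to 179), Ckm (168, the others 18.7 to 32.1), Alas2 (611, the others 183 to 259.8), Elane (80.8, the others 11.6 to 22.5), Chil3 (946, the others 160.1 to 359), Mmp13 (7.88, the others 0 to 1.78) and Muc5b (11.8, the others 0 to 2.89). In RvD6-standard replicate 7 these were Reg3g (1842, the others 0 to 36.8), Cbr2 (712, the others 59.5 to 84.5), Bpifa1 (5035, the others 36.0 to 110.3), Muc5b (543, the others 1.4 to 54.4), Cyp2f2 (515, the others 8.41 to 18) and Wfdc2 (251, the others 0 to 49.3). In RvD6-standard replicate 9 these were Cd74 (476, the others 133 to 228) and Gfap (768, the others 174 to 322). In vehicle replicate 2 these were Gfap (269, the others 118 to 155). In vehicle replicate 3 these were mt-Nd5 (26166, the others 21465 to 22276), Pomc (209, the others 6.49 to 44.3) and Gh (25399, the others 46.2 to 2295). In RvD6-standard replicate 10 these were Pomc (10478, the others 8.41 to 1696). In RvD6-standard replicate 6 these were Vip (688, the others 0 to 178) and Bpifb1 (4226, the others 33.7 to 752). Vehicle replicate 4 and RvD6-standard replicate 7 account for 9 and 6 of the 25. All 6 of replicate 7 are airway-type genes. They entered the checks after their values were seen, or through the fit with both scores, in which replicate 7 stood out. For this reason too, their number cannot be set against the chance rate.

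A difference between the lipids was tested in the same edgeR fit, in which 39 genes differed between RvD6-standard and RvD6-isomer. The named genes among them, with the log2 difference and in parentheses the adjusted p of edgeR, were Atp2a1 7.14 (0.0199), Trdn 5.49 (0.0435), Ttn 5.12 (0.0132), Cmya5 4.65 (0.0314), Pgam2 4.10 (0.0387), Acta1 5.30 (0.0197), Ckm 5.69 (0.0199), Chil3 3.27 (0.0247), Ctsk 1.21 (0.0349) and Acta2 1.45 (0.0392). RvD6-isomer replicate 15 is part of that group.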

How the results depend on the processing

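No paired analysis was possible because no replicate number is shared between the groups compared. The count of 0 genes called by edgeR became 309 by DESeq2 (560 with only the 2 groups), 35 by edgeR on the 2 groups alone, 56 with no filter, 24 with at least 10 counts in every sample, 1 with counts thinned to equal depth, 3 with the muscle score and 1 with both scores, and 0 to 52 with one sample left out (52 without RvD6-isomer replicate 15, 17 without RvD6-standard replicate 7 and 1 without vehicle replicate 2). The 2256 genes at an unadjusted p below 0.05 became 4316 with no filter, 1243 with the muscle score, 1228 with the blood score and 689 with both. The 309 genes of DESeq2 became 20, 27 and 0 with these covariates, 121 without RvD6-standard replicates 8 and 9, and 86 (without RvD6-standard replicate 9) to 499 (without RvD6-standard replicate 8) with one sample left out. With both scores edgeR called 1 gene, against 3 with the muscle and 0 with the blood score. DESeq2 called 144 genes between RvD6-standard and RvD6-isomer, against 39 by edgeR. Of the genes called higher, 14 followed blood at a correlation of 0.7, 29 at 0.6 and 2 at 0.8. The mean difference was 2.43 to 3.38 for the muscle score and 2.03 to 2.61 for the blood score with one sample left out. Library totals of 5336073 to 9903396 limit what the lower counts can show. Where the cause of such a shift is not given by the setting itself, the cause was not tested. A list median is said to have moved where it shifted by more than the spread between replicates, that is 1 within-group SD of the mean log2 CPM of the list; a median that shifted by less, even by a large factor of a small value, is not in the following lists. With the muscle score as covariate the list medians that moved by more than this were cold-sensing neuron 0.54, satellite glia -0.13, myelinating Schwann cell -0.21, mature neutrophil 3.67, platelet and megakaryocyte 2.04, muscle contractile -0.16, muscle calcium and energy -0.14, connective tissue fibroblast 0.16, pituitary 2.58, epithelial keratin 1.56, TRP and Piezo channel 0.28, sodium channel 0.18, immediate early -0.23, mitochondrial mRNA -0.0238, cell cycle 2.10, collagen 0.17 and fatty acid oxidation -0.29. With both scores as covariates the list medians that moved by more than this were myelinating Schwann cell 0.00261, erythroid -0.32, granulocyte precursor 0.62, mature neutrophil 0.59, B lineage -0.53, T and NK cell -2.35, platelet and megakaryocyte -0.21, blood progenitor 1.54, muscle contractile -0.28, muscle calcium and energy -0.20, smooth muscle and pericyte 1.52, bone and cartilage 1.12, pituitary 4.15, adipocyte 0.50, TRP and Piezo channel 0.16, sodium channel 0.22, calcium and HCN channel 0.50, transmitter receptor 0.26, neurotrophin and GDNF signalling 0.25, immediate early -0.35, axonal cytoskeleton and motor -0.12, synaptic vesicle 0.44, complex I -0.53, complexes II to V -0.47, mitochondrial mRNA 0.0394, mitochondrial ribosome -0.47, cytosolic ribosome -0.30, chaperone -0.11, cell cycle 0.14, glycolysis -0.12, fatty acid oxidation -0.21, haem synthesis and iron -0.20 and circadian clock 0.57. Without RvD6-standard replicates 8 and 9, an alternative chosen after the data were seen, the list medians that moved by more than this were myelinating Schwann cell 0.0343, muscle contractile 1.81, muscle calcium and energy 0.98, TRP and Piezo channel 0.15, mitochondrial mRNA 0.13 and fatty acid oxidation -0.18. With at least 10 counts in every sample the list medians that moved by more than this were erythroid 1.34, blood progenitor 0.24 and bone and cartilage 1.03. With the blood score as covariate the list medians that moved by more than this were erythroid 0.19, granulocyte precursor -0.16, mature neutrophil -0.0704, B lineage -0.49, T and NK cell -1.22, platelet and megakaryocyte -0.54, bone and cartilage 0.75, adipocyte 0.29, cytosolic ribosome -0.23, autophagy and mTOR 0.0226, chaperone -0.13, cell cycle -0.00383, MHC and antigen presentation -0.00982, chemokine and cytokine -0.15, cholesterol and fatty acid synthesis 0.26, glycolysis -0.0940 and haem synthesis and iron -0.12. With counts thinned to 4125962 per library the list medians that moved by more than this were bone and cartilage 1.34. With the GC trend removed the list medians that moved by more than this were mitochondrial mRNA 0.0521, translation factor -0.15 and splicing factor 0.0417. With the gene length trend removed the list medians that moved by more than this were splicing factor 0.0657. With one sample left out at a time, the list medians that moved for some sample ranged as follows: myelinating Schwann cell 0.0171 to 0.41, erythroid 1.93 to 3.04, blood progenitor 0.81 to 1.69, endothelial 0.14 to 0.47, pituitary -0.27 to 3.05, TRP and Piezo channel -0.12 to 0.20, translation factor -0.11 to -0.0337 and cell cycle 1.14 to 1.99. With both scores as covariates the log2 fold change turned negative for Xirp2 (-0.35), Ckm (-0.49), Acta1 (-0.73), Myl1 (-0.98), Mylpf (-0.49), Tnnt3 (-1.44), Tnni2 (-0.55), Actn3 (-0.86), Eno3 (-1.42), Pygm (-0.74) and Casq1 (-0.0440). With the muscle score as covariate the log2 fold change turned negative for Pgam2 (-0.14), Neb (-0.21), Ckm (-0.54), Acta1 (-0.68), Myl1 (-0.69), Mylpf (-0.86), Tnnt3 (-0.11), Myh4 (-0.0281), Actn3 (-1.29), Eno3 (-1.05) and Casq1 (-0.42).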
